A study of Mus musculus with 8 samples.

Results

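The cycling macrophages of mouse glioma were the cells of the glioma matrix that combined macrophage transcripts with transcripts of dividing cells. They were selected by a rule on measured transcripts, counted as unique molecular identifiers (UMIs, each standing for 1 captured mRNA molecule). A barcode had to hold at least 2000 UMIs, at least 700 genes and at most 10% mitochondrial UMIs. It also needed at least 4 UMIs of the macrophage genes Csf1r, Fcgr1, Adgre1 and Cd14 together, 0 UMIs of the T cell genes Cd3d, Cd3e and Cd3g, and fewer than 5 UMIs of Krt8, Krt18 and Rhox5. Of the 7090 glioma barcodes that met these limits, 504 carried Top2a, Mki67 and Birc5 at 3 or more UMIs per 10000 UMIs of the cell, and these 504 are called cycling macrophages here. They made up 7.11% of the gated macrophages (exact 95% binomial interval 6.52 to 7.73%), 504 of the 10487 glioma barcodes past the quality limits and 504 of 22597 in both libraries.

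The study profiled single cells bearing CD45, the surface protein of leukocytes, which were isolated from mouse brain with magnetic beads. The control group was normal brain in 4 samples, and the glioma group was tumour of glioma-bearing mice in 4 samples. Strain, age, sex, glioma line, implantation and day of collection are not given in the sources used here. The deposited counts come as 1 pooled matrix per group with no map from barcodes to the 4 samples, so each group is 1 library, no replicate spread can be had and no p-value is given. All intervals are 95% intervals, and they cover counting error only.

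Macrophages of adult tissue either descend from cells that divide in place or arrive as blood monocytes, which lose their monocyte genes as they mature. A dividing cell first switches on genes for DNA replication through E2F transcription factors, then copies its DNA while making histones, and then switches on genes for mitosis. The mitotic genes are controlled by the MuvB complex with B-MYB (Mybl2) and FOXM1, which act at a promoter element called the cell cycle genes homology region (CHR), often beside CCAAT boxes. In macrophages, division is driven chiefly by the growth factor CSF1 acting on its receptor CSF1R, and cyclins of the D type connect growth factor signals to the cell cycle.

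The values that chose the cells are a description only. Levels are given as CPM, the UMIs of a gene per 1000000 UMIs of the summed cells. Top2a, which untangles DNA before mitosis, stood at 309 CPM in cycling macrophages and 7.54 CPM in the 6586 other gated macrophages of the glioma library. Mki67, which coats mitotic chromosomes, stood at 303 and 12.5 CPM, and Birc5, a subunit of the chromosomal passenger complex, at 236 and 5.59 CPM. On the GENCODE annotation of GRCm38, Top2a lies at chr11:98992943-99024189, Mki67 at chr7:135689784-135716361 and Birc5 at chr11:117849251-117855743, all protein-coding. Of the 504 cells, 393 (78.0%) held UMIs of all 3 genes, 379 (75.2%) held at least 10 UMIs of them, and 13 passed with 1 UMI. Among the other macrophages, 5249 of 6586 (79.7%) held 0 UMIs of the 3 genes. The gate genes were near one another on both sides except Cd14, the lipopolysaccharide co-receptor, at 671 against 1507 CPM. Fcgr1, an antibody receptor, stood at 192 against 230 CPM and Adgre1, which encodes F4/80, at 77.1 against 77.5 CPM. In the whole glioma library 943 barcodes passed the cycle threshold. Of these, 104 met the macrophage gate but held a Cd3 UMI, 333 were under the gate and 2 failed on keratins.

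The threshold cut through a continuous range. The 63 cells just inside it, at 3 to 4 UMIs per 10000, had Pclaf at 141 CPM, Cdk1 at 44.0 CPM and Stmn1 at 316 CPM. The 135 cells just outside it, at 2 to 3 UMIs per 10000, had Pclaf at 88.7 CPM, Cdk1 at 33.8 CPM and Stmn1 at 202 CPM, so cells on both sides of the limit carried cycle transcripts. Pclaf (chr9:65890237-65903266), a partner of the replication clamp PCNA that the rule did not use, was seen in 84.3% of cycling macrophages and 5.41% of the other macrophages. After each cell was thinned to 2000 UMIs, Pclaf was seen in 36.3% of cycling macrophages, 0.941% of other macrophages and 7.02% of the 897 glioma T cells, a class that holds dividing cells of its own. As a level of background, C1qa was seen in 91.7% of thinned cycling macrophages, 66.9% of others and 10.8% of T cells, and its source in T cell barcodes was not tested. Free RNA itself, summed over 35145 barcodes too shallow to be cells, held Top2a at 77.8 CPM and Pclaf at 56.1 CPM, above the other macrophages. Its estimated share of UMIs was 3.88% in cycling and 5.03% in other macrophages. The estimate rests on T, B and plasma cell genes in cells gated for no Cd3 UMI, so it can be too low.

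Cycling macrophages were much deeper cells. Their median was 25232 UMIs and 4549 genes, against 12548 UMIs and 2881 genes in the other macrophages. The share of cycling cells was 4.74% at 2000 to 5000 UMIs, 1.49% at 5000 to 10000, 3.55% at 10000 to 20000, 20.9% at 20000 to 40000 and 55.9% above 40000. In the shallowest bin 1 rule gene UMI can reach the threshold, and 13 cycling cells held 1. Above that bin, depth moved with the group. The ratios were therefore also computed among the 1448 gated cells of 20000 to 40000 UMIs, of which 302 were cycling (median 27858 UMIs) and 1146 were not (median 23630 UMIs). No doublet caller was run, so a deep barcode may hold more than 1 cell. The summed T cell list (17 genes) was at 11.5 CPM in cycling macrophages, 15.5 CPM in other macrophages and 4286 CPM in cycling T cells. The gate left out barcodes with a Cd3 UMI, so a low T cell list in gated cells follows in part from the gate.

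The cells carried the macrophage genes that the label implies. Lyz2 stood at 4104 CPM, Tyrobp at 1444 CPM and C1qa at 2958 CPM, against 78.9, 81.8 and 36.2 CPM in cycling T cells of the same library. All 15 genes of the macrophage core list were detected. Their median log2 ratio against other macrophages was -0.39, and -0.33 among cells of 20000 to 40000 UMIs. Markers of resident microglia were low on both sides: P2ry12 stood at 13.8 CPM in cycling and 11.6 CPM in other glioma macrophages, against 2148 CPM in control cells under the threshold.

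Against the other glioma macrophages, 11557 genes with at least 50 UMIs over both sums were compared, the 3 rule genes left out, and their median log2 ratio was 0.12. In all, 796 genes (6.89%) were at least 2-fold higher and 301 (2.60%) at least 2-fold lower in cycling macrophages, 9.49% in all. Among cells of 20000 to 40000 UMIs, the numbers were 615 (5.87%) and 125 (1.19%) of 10474 genes, whose median log2 ratio was 0.08. The rule used this same contrast, so the counts of cycle genes below describe the cells and are no independent finding.

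**Figure D1:**
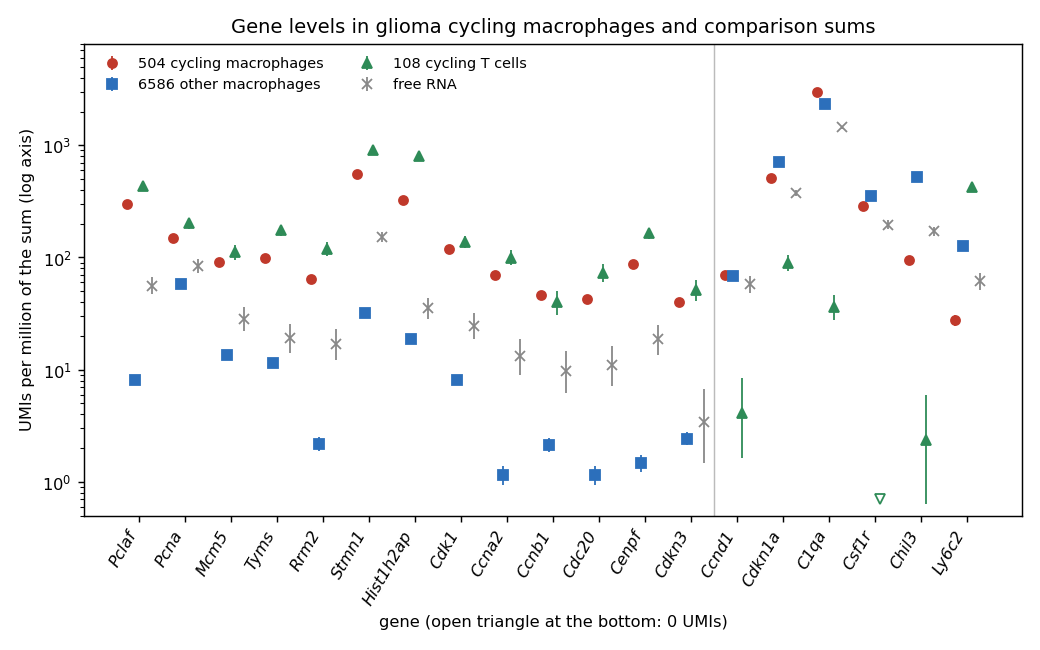
CPM (log axis) of 19 genes in the sums of 504 cycling macrophages, 6586 other glioma macrophages, 108 cycling T cells and free RNA; bars are 95% Poisson intervals. The cycle genes left of the line are higher in cycling than in other macrophages (Pclaf 301 against 8.06 CPM), while Ccnd1 lies level (69.4 and 68.8 CPM) and Chil3 and Ly6c2 are lower.

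Genes of the early cycle, which license and copy DNA, were higher as a group. Of 39 genes, 36 were at least 2-fold higher and none lower, with a median log2 ratio of 2.28 (1.88 at 20000 to 40000 UMIs). The MCM genes encode the replicative helicase: Mcm5 stood at 92.0 CPM against 13.4 CPM, Mcm7 at 87.7 against 13.8 CPM and Mcm3 at 89.0 against 18.9 CPM. Pcna, the sliding clamp, was high in both sums, at 151 against 58.5 CPM. The widest ratios were those of genes that were nearly silent in the other cells. Mcm10, a helicase activator, stood at 30.4 CPM against 1.16 CPM (log2 4.70, interval 4.39 to 5.03), and Clspn, which carries the checkpoint signal at stalled forks, at 39.7 against 1.92 CPM. Pold3, Mcm4 and Slbp stayed under 2-fold, with log2 ratios of 0.93, 0.89 and 0.86.

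Genes of the late cycle, which build and run the mitotic spindle, stood further apart. Of 58 genes, 56 were at least 2-fold higher and none lower, with a median log2 ratio of 4.66 (4.14 at 20000 to 40000 UMIs). Kif11, the motor that pushes spindle poles apart, stood at 52.4 CPM against 0.775 CPM. Nusap1, which bundles spindle microtubules, stood at 85.8 against 1.23 CPM, Cenpf, a kinetochore protein, at 87.4 against 1.46 CPM, and Plk1, the mitotic kinase, at 30.0 against 0.509 CPM. The exceptions were Bub3, a checkpoint protein (102 against 53.1 CPM, log2 0.94), and Pttg1. Pttg1, which encodes securin, the guard of sister chromatid cohesion, was at 26.2 CPM in cycling macrophages and level with the others, at a log2 ratio of 0.07 with an interval of -0.11 to 0.23.

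The promoters of these genes differed in the letters they held. Promoter sequences were taken from RefSeq (GRCm38.p6), 250 bases before to 50 bases after each annotated start. They matched 49 of 58 late genes (54 promoters) and 30 of 39 early genes (35 promoters). A CHR, searched as TTTGAA or TTCGAA on both strands, was in 41 of 54 late promoters (75.9%), 5 of 35 early promoters (14.3%) and 19.2% of all 32851 promoters. CCAAT, on both strands, was in 75.9% of late promoters, 21 of 35 early promoters and 37.4% of all promoters, and both motifs were in 63.0%, 11.4% and 7.53%. An E2F motif, searched as TTTCGCGC, TTTGGCGC, TTTCCCGC or TTTGCCGC on both strands, was in 42.9% of early, 5.56% of late and 2.26% of all promoters. CHR and CCAAT matches overlapped in 48 promoters, E2F and CCAAT matches in 5, and CHR and E2F matches in 0. A match is a description of the letters and not a sign of binding, since no binding was measured.

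Ranked by the lower bound of the ratio's interval, the first 4 genes outside the rule whose promoter held a CHR are printed from 250 bases before to 30 bases after the start, 5′ to 3′, with CHR and CCAAT matches in capitals. They were Depdc1a, a mitotic progression factor, at chr3:159495183-159495462 (plus strand), and the mitotic kinesins Kif18b at chr11:102925095-102925374 (minus strand), Kif11 at chr19:37376132-37376411 (plus strand) and Kif14 at chr1:136467598-136467877 (plus strand). In Depdc1a, Kif18b and Kif11 the CHR lay at -16, 4 and -19 from the start with a CCAAT upstream, while in Kif14 it lay at -228. The choice took the first listed promoter of each gene and did not cover every chromosome.
Depdc1a: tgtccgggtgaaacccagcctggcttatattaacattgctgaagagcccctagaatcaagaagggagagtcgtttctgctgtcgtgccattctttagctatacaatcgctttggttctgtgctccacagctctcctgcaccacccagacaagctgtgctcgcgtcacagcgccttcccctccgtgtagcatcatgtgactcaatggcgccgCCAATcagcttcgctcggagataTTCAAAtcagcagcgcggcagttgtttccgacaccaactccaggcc
Kif18b: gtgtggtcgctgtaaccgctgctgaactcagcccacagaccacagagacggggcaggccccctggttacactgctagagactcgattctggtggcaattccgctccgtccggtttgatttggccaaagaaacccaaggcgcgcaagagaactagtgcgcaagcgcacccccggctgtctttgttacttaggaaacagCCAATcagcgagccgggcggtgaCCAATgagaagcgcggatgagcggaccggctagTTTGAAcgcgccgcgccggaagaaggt
Kif11: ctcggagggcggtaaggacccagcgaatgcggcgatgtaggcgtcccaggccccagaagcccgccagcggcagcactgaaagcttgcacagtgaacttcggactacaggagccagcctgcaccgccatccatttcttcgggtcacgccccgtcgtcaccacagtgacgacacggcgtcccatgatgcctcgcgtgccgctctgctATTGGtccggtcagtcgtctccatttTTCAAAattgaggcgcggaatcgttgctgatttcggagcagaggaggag
Kif14: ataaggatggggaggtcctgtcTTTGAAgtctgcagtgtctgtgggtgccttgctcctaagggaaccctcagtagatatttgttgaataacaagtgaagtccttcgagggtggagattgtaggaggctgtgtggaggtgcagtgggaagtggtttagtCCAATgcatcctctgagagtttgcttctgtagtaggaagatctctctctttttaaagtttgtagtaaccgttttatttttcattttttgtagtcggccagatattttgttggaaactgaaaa

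For the early genes, the E2F motif is shown in capitals for Clspn, at chr4:126556730-126557009 (plus strand), and Dtl, a subunit of the ligase that degrades Cdt1, at chr1:191575515-191575794 (minus strand). These ranked highest, by the same bound, among early genes with such a match on the chromosomes covered, and both were chosen after their values were seen. The match began at 22 in Clspn and at -8 in Dtl.
Clspn: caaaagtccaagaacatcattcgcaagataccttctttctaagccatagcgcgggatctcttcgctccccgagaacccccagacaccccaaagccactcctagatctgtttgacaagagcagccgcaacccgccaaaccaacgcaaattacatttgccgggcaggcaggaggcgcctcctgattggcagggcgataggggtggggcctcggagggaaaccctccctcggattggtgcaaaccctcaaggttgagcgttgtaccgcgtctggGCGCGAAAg
Dtl: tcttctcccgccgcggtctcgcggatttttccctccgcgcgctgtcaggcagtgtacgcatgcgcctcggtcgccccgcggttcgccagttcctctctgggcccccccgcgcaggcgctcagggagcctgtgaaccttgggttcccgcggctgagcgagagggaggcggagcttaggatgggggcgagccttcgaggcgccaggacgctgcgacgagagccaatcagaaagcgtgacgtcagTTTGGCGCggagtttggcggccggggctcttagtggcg

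Histone transcripts of the replication-dependent clusters followed. Of 23 histone genes that passed the minimum, 19 were at least 2-fold higher and none lower (median log2 ratio 2.87, and 2.75 at 20000 to 40000 UMIs). Hist1h2ap stood at 324 CPM against 18.7 CPM, Hist1h2ae at 208 against 11.8 CPM and Hist1h1b at 172 against 12.5 CPM. Hist1h2bc (63.9 and 63.2 CPM), Hist1h2ac (20.9 and 17.7 CPM) and Hist1h1c (105 and 117 CPM) were at like levels on both sides. Histone genes of these clusters are near-identical to one another, so reads can be split between copies, and each gene's value is uncertain.

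Among 20 cyclins, kinases and their partners, 16 were at least 2-fold higher and none lower (median log2 ratio 2.14). Ccna2, the cyclin of DNA synthesis and mitotic entry, stood at 69.2 against 1.14 CPM. Cdk1, the mitotic kinase, stood at 119 against 8.01 CPM, Ccnb1, its cyclin, at 46.6 against 2.14 CPM, and Pbk, a mitotic kinase, at 23.2 against 0.288 CPM. The D-type cyclins did not follow. Ccnd1 stood at 69.4 CPM in cycling and 68.8 CPM in other macrophages, Ccnd3 at 50.9 and 41.0 CPM, and Ccnd2 at 98.5 and 126 CPM. At 20000 to 40000 UMIs, Ccnd1 (64.9 against 101 CPM, log2 -0.63, interval -0.76 to -0.50) and Ccnd2 (91.3 against 157 CPM, log2 -0.78, interval -0.89 to -0.67) were both lower in the cycling cells and Ccnd3 was higher (52.9 against 39.0 CPM). Their kinase partners also differed, with Cdk4 at 90.3 against 45.1 CPM and Cdk6 at 22.9 against 24.9 CPM.

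Inhibitors of the cycle split into opposing sets. Of 20 genes, 6 were at least 2-fold higher and none 2-fold lower, and their median log2 ratio of 0.06 lay near that of all genes. The higher ones were Fbxo5, which restrains the anaphase-promoting complex (log2 ratio 4.81), Cdkn3, a phosphatase of cyclin-dependent kinases (40.1 against 2.43 CPM), the Cdk4 and Cdk6 inhibitors Cdkn2c (24.6 against 2.20 CPM) and Cdkn2d (log2 ratio 1.40), the licensing inhibitor Gmnn (69.8 against 13.7 CPM) and the retinoblastoma relative Rbl1 (31.1 against 6.40 CPM). The general brakes were lower by less than 2-fold. Cdkn1a, which encodes p21, stood at 509 against 712 CPM, Btg1 at 656 against 1082 CPM and Btg2 at 289 against 445 CPM. These differences were narrower at 20000 to 40000 UMIs, at log2 ratios of -0.22, -0.37 and -0.44. Cdkn1b, which encodes p27, stood at 47.8 and 53.3 CPM.

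Of 18 cycle transcription factors that passed the minimum, 9 were at least 2-fold higher and none lower (median log2 ratio 0.99). Foxm1, which drives mitotic genes, stood at 26.1 against 0.476 CPM, Mybl2 at 18.4 against 0.930 CPM, and the late repressors E2f7 and E2f8 at 11.2 against 0.255 CPM and 17.7 against 2.06 CPM. Myc, the growth regulator, was level at 14.5 and 14.0 CPM, and its partner Max at 48.1 and 48.1 CPM. Chromatin and tubulin genes were higher in 26 of 29 cases (median log2 ratio 2.02). Stmn1, a microtubule destabiliser, stood at 558 against 31.9 CPM, Hmgb2, a chromatin protein, at 1099 against 200 CPM, Tubb5, a tubulin, at 1167 against 222 CPM, and the condensin subunit Smc2 at 144 against 13.1 CPM.

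Transcripts for making DNA building blocks were higher, and those for building ribosomes were higher by less than 2-fold. Of 30 nucleotide synthesis genes, 14 were at least 2-fold higher and none lower (median log2 ratio 0.92), and at 20000 to 40000 UMIs 11 were (median 0.73). Rrm2, the regulatory subunit of ribonucleotide reductase, stood at 63.9 against 2.19 CPM, Tk1, thymidine kinase, at 72.4 against 3.60 CPM, and Tyms, thymidylate synthase, at 98.9 against 11.4 CPM. Impdh1, an enzyme of guanine nucleotide synthesis, went the other way at 5.15 against 9.59 CPM, while its relative Impdh2 stood at 139 against 68.9 CPM. Of 22 ribosome biogenesis genes none passed 2-fold, and 17 had intervals above 0 (median log2 ratio 0.36, and 0.17 at 20000 to 40000 UMIs). Ncl, which encodes nucleolin, stood at 563 against 365 CPM.

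**Figure D2:**
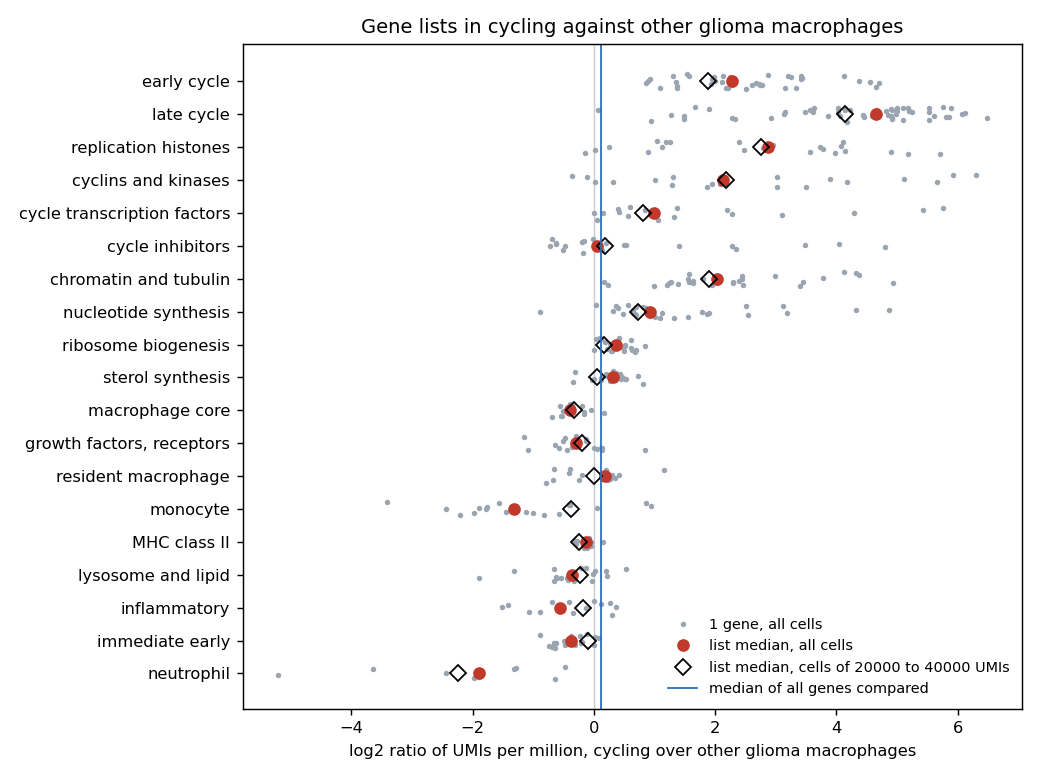
Log2 ratio of cycling over other glioma macrophages for each gene of 19 lists (grey), with list medians over all cells (red) and among cells of 20000 to 40000 UMIs (open diamonds); genes at 0 UMIs on one side are placed by the 0.5 UMIs added. The late cycle median lies at 4.66 and 4.14, while the monocyte list moves from -1.31 to -0.38.

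Outside the cycle lists, the 15 genes with the highest ratios were Pclaf, Rrm2, Depdc1a, Kif18b, Neil3, Aspm, Spag5, Hist1h2af, Ska1, Esco2, Mxd3, Cep55, Shcbp1, Prr11 and Parpbp. Among them, Aspm (21.2 against 0.310 CPM), Spag5 (21.7 against 0.321 CPM) and Ska1 (22.2 against 0.410 CPM) act at spindle poles and kinetochores. Neil3 (20.3 against 0.288 CPM) is a DNA glycosylase, Esco2 (19.9 against 0.365 CPM) acetylates cohesin during DNA synthesis, and Cep55 (27.6 against 0.565 CPM) acts in the final cut between daughter cells. The 15 lowest were Ly6c2, Chil3, Ace, Gzma, Ccr7, Retnlg, Ngp, Ltf, BC100530, 2010005H15Rik, Stfa2, Cd177, Mcpt1, Mcpt2 and Stfa2l1. These are mainly genes known from monocytes, neutrophils, lymphocytes, mast cells and migratory dendritic cells. Ltf and Mcpt2 had 0 UMIs in cycling macrophages, against 134 and 121 UMIs in the other macrophages.

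The cells were then placed along the cycle by the share of late-list UMIs among early- and late-list UMIs, and divided into an early, a middle and a late group of 166, 165 and 165 cells. The other 8 cells held too few of these UMIs. Median depth was 26617, 26366 and 22794 UMIs. The early and late lists set the order, so the trend of their genes is fixed by it and is given as a description of the groups. Ccne2, the cyclin of DNA synthesis entry, stood at 26.6 CPM in the early group and 2.31 and 0.777 CPM after it, and Ung, a uracil glycosylase, at 17.6, 1.39 and 0.518 CPM. Mcm5 declined more slowly, at 157, 79.7 and 36.0 CPM. Cdc20, the activator of the anaphase-promoting complex, stood at 8.09, 20.6 and 104 CPM, and Ccnb2 at 27.4, 62.8 and 165 CPM.

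Genes that the order did not use also varied along it. Pclaf was highest early, at 425, 298 and 170 CPM (log2 of late over early -1.32, interval -1.45 to -1.19). Rrm2 stood at 108, 56.6 and 24.3 CPM, and the maintenance DNA methyltransferase Dnmt1 at 98.2, 64.5 and 33.4 CPM. The summed histone list was as high in the middle as in the early group and lower late, at 1735, 1754 and 1088 CPM. Late-group genes included Cdkn3 at 15.9, 33.0 and 74.6 CPM and Tubb4b at 113, 173 and 256 CPM. Hist1h2bc, which was level between cycling and other macrophages, stood at 28.5, 54.3 and 113 CPM along the order, opposite to Hist1h2ap (395, 375 and 190 CPM) and Hist1h1b (256, 180 and 71.0 CPM).

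Macrophage genes varied along the order as well. C1qa stood at 2633, 2775 and 3528 CPM, Apoe, the lipid carrier, at 4350, 5312 and 6700 CPM, and the summed resident macrophage list at 12659, 13907 and 17680 CPM. That sum is mostly Apoe and the C1q genes. Over all cycling macrophages Apoe gave 5413, C1qb 3075, C1qa 2958 and C1qc 1898 of its 14646 CPM. The macrophage core list was nearly level at 13824, 13886 and 14293 CPM. The monocyte list stood at 6572, 7124 and 6381 CPM, and Chil3 and Ly6c2 together at 111, 88.9 and 173 CPM. Inhba, which encodes an activin subunit, ran the other way at 105, 55.9 and 27.4 CPM, as did the interferon-induced Rsad2 at 158, 45.3 and 53.1 CPM. The neutrophil list was uneven, at 70.9, 498 and 266 CPM, and 10 of the 504 cells held S100a8 and S100a9 at 50 or more UMIs per 10000. The part of such cells in the values of single groups was not tested.

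**Figure D3:**
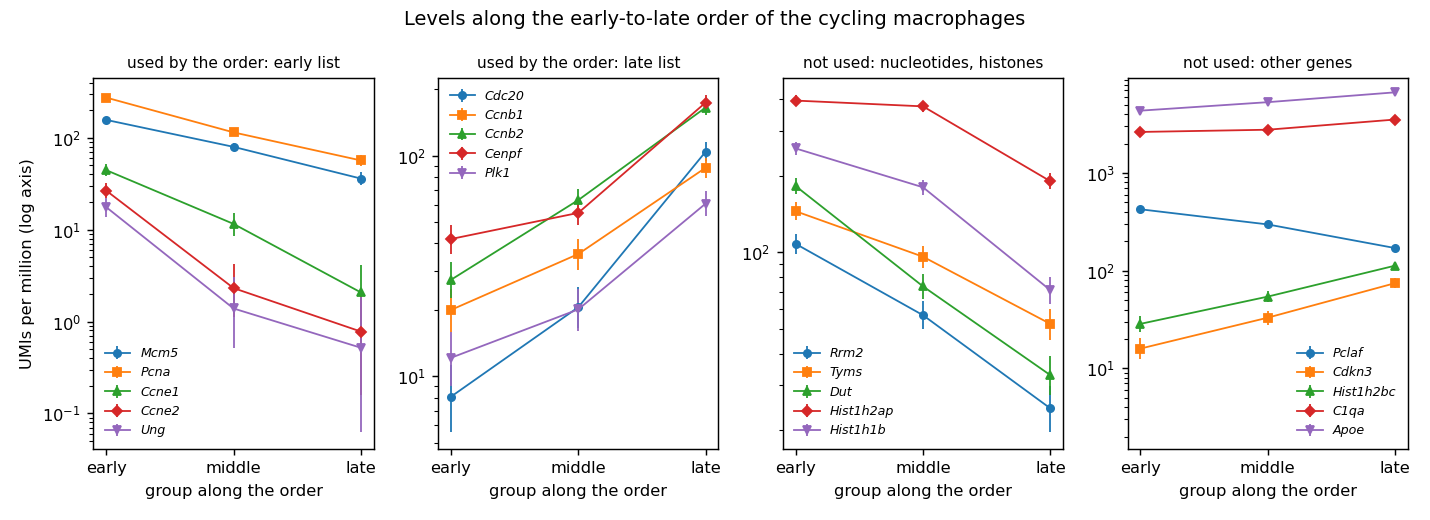
CPM (log axes, which differ between panels) along the early-to-late order, in groups of 166, 165 and 165 cycling macrophages; bars are 95% Poisson intervals. The first 2 panels show genes that set the order; in the other panels Pclaf (425 to 170 CPM) and Rrm2 decline, while Cdkn3 (15.9 to 74.6 CPM), Hist1h2bc and Apoe climb.

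Monocyte genes were lower in cycling macrophages, and depth moved with much of that difference. Of 19 monocyte genes, 12 were at least 2-fold lower and none 2-fold higher (median log2 ratio -1.31, beside 0.12 over all genes). Chil3, a chitinase-like protein of inflammatory monocytes, stood at 95.8 against 521 CPM, and Ly6c2, the classical monocyte surface marker, at 27.5 against 127 CPM. Vcan, a matrix proteoglycan, stood at 15.1 against 51.7 CPM, and Fn1, fibronectin, at 89.4 against 245 CPM. At 20000 to 40000 UMIs the list's median was -0.38, with 3 of 18 genes 2-fold lower and 2 (Cd300e and Spn, both of few UMIs) 2-fold higher. The 3 lower genes were S100a8 (9.12 against 91.7 CPM), S100a9 (6.47 against 143 CPM) and Vcan. S100a8 and S100a9 are also in the neutrophil list. Cd300e stood there at 3.23 against 0.839 CPM and Spn, which encodes CD43, at 8.55 against 3.11 CPM. There Chil3 stood at 82.2 against 146 CPM (log2 -0.83, interval -0.94 to -0.71), Ly6c2 at 30.6 against 46.0 CPM (log2 -0.59, interval -0.78 to -0.40) and Vcan at 11.1 against 25.9 CPM. Without barcodes that held 2 or more UMIs of neutrophil, dendritic or mast cell genes, the list's median was -1.17 and Chil3 had a log2 ratio of -2.88. That removal did not use S100a8 or S100a9. The part of depth in the difference was not tested further.

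The share of cycling cells varied with the summed UMIs of the monocyte list, which were read after thinning each cell to 2000 UMIs. It was 15.9% (201 of 1266 cells) at 0 to 9 thinned UMIs of the list, 8.75% at 10 to 19, 3.44% at 20 to 39, 1.06% at 40 to 79 and 1.76% at 80 or more. Among cells of 20000 to 40000 UMIs the shares were 31.6%, 20.7%, 13.1%, 4.08% and 0 of 6 cells (interval 0 to 45.9%), each lower than the one before. Most UMIs of the list came from Lyz2 and Thbs1, at 4104 and 1141 of 6754 CPM in cycling macrophages. Chil3 and Ly6c2 gave 95.8 and 27.5 CPM, so the bins mainly rank cells by Lyz2 and Thbs1. For the complement genes C1qa, C1qb and C1qc the pattern differed. Their level separated the shares over all depths, from 1.74% at 0 to 1 thinned UMIs to 11.1% at 20 or more. Within the depth window the shares were 18.9%, 7.46%, 20.7%, 20.9% and 23.4%, with no steady order, and C1qa itself stood at 2995 against 2863 CPM.

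Genes of antigen presentation by MHC class II were slightly lower. All 10 genes were within 2-fold (median log2 ratio -0.13, and -0.25 at 20000 to 40000 UMIs), with H2-Ab1 at 5158 against 6252 CPM and the invariant chain Cd74 at 10479 against 11782 CPM. By level of this list the share of cycling cells over all depths was 4.90%, 10.5%, 11.2%, 7.50% and 2.50% in bins of 0 to 19, 20 to 39, 40 to 59, 60 to 79 and 80 or more thinned UMIs. Within the depth window it was 35.1%, 29.3%, 24.3%, 18.3% and 10.6%, lower in each bin than in the one before.

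**Figure D4:**
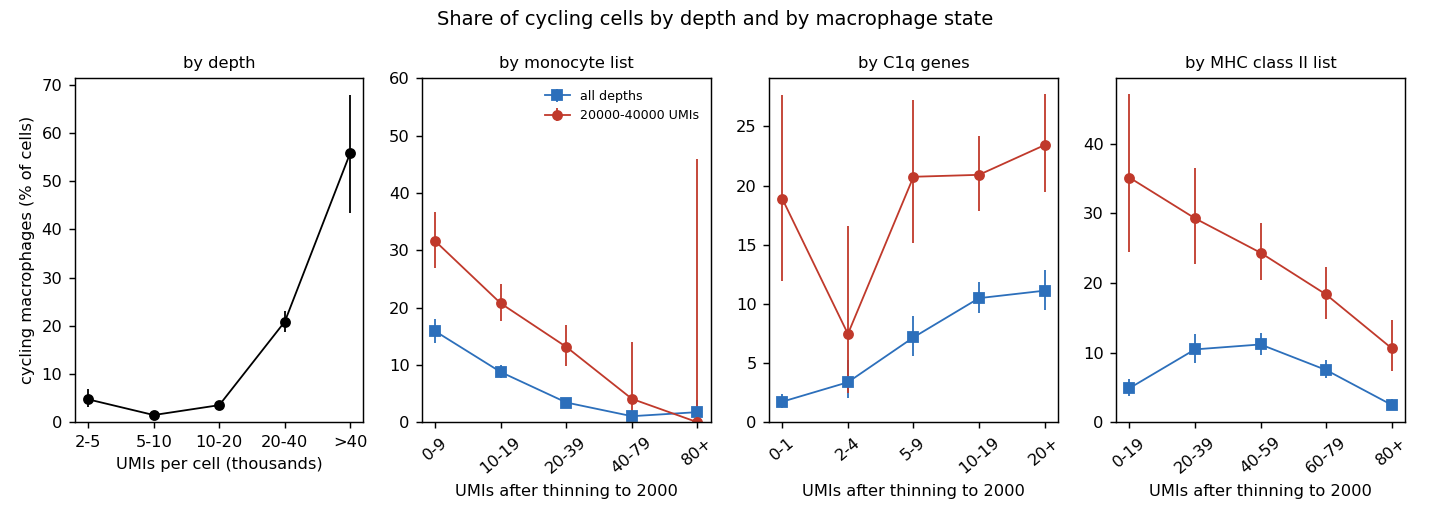
Share of cycling cells among gated glioma macrophages by depth, and by thinned UMIs of the monocyte list, the C1q genes and the MHC class II list, over all depths (squares) and at 20000 to 40000 UMIs (circles); bars are exact 95% binomial intervals and the vertical axes differ. The share is 55.9% in the deepest cells, and at 20000 to 40000 UMIs it runs from 31.6% to 4.08% over the first 4 monocyte bins. Most UMIs of the monocyte list come from Lyz2 and Thbs1.

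Receptors and ligands for macrophage growth were mostly lower. Of 17 genes that passed the minimum, none was 2-fold higher and 2 were 2-fold lower (median log2 ratio -0.30), with 10 intervals below 0 and 2 above. At 20000 to 40000 UMIs the median was -0.20, with 1 gene 2-fold lower, 8 intervals below 0 and 2 above. Over all cells Tfrc, the transferrin receptor, was the highest at 9.42 against 5.29 CPM (log2 0.84, interval 0.53 to 1.13). Csf1r stood at 286 against 351 CPM, Csf2rb, the shared receptor chain for GM-CSF, at 395 against 588 CPM, and Csf1 at 8.70 against 19.3 CPM. At 20000 to 40000 UMIs Csf1 stood at 9.12 and 8.92 CPM (log2 0.04, interval -0.35 to 0.40). The other lower gene was Hbegf, an EGF family ligand, at 12.3 against 26.3 CPM. Macrophage transcription factors were all within 2-fold on 24 of 24 genes. Maf, a factor that limits macrophage division, stood at 128 against 115 CPM, and its sign turned in the depth window (log2 -0.04). Cebpb, a factor of inflammatory activation, stood at 932 against 1384 CPM, but at 939 and 962 CPM in the depth window.

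Other states were lower by small amounts. The inflammatory list had a median log2 ratio of -0.56 (3 of 18 genes 2-fold lower), with Il1b at 1894 against 2821 CPM and the chemokine Ccl5 at 86.7 against 248 CPM. In the depth window the list's median was -0.18, with 2 of 18 genes 2-fold lower. Ccl5 kept its ratio in the depth window (75.6 against 207 CPM), where Il1b was at 1947 against 2266 CPM. Immediate early genes had a median of -0.37 with none of 19 past 2-fold, and -0.10 in the depth window. Lysosome and lipid genes had a median of -0.37, and -0.24 in the depth window. In that list Gpnmb, a lysosomal glycoprotein of lipid-laden macrophages, stood at 7.73 against 28.9 CPM, and at 5.43 against 19.8 CPM in the depth window. Of 14 genes linked to immune suppression, 2 were 2-fold lower (median log2 ratio -0.50). In the depth window 1 was 2-fold lower (median -0.22). The 2 over all cells were Gpnmb and Arg1, the arginase of alternatively activated macrophages. Arg1 stood at 199 against 420 CPM, and at 195 against 309 CPM in the depth window. The type I interferon list had a median log2 ratio of -0.32 over all cells and 0.18 in the depth window, where 2 of 19 genes were 2-fold higher. All genes compared in that window had a median of 0.08, and 5.87% of them were 2-fold higher. Ifit1 stood at 36.2 against 34.1 CPM over all cells and at 39.5 against 16.7 CPM in the depth window. Sterol synthesis genes had a median of 0.32, with 15 of 22 intervals above 0 and 2 below, and a median of 0.06 in the depth window. Glycolysis genes had a median of -0.14, with 13 of 20 intervals below 0 and 2 above, and a median of -0.18 in the depth window.

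The orphan nuclear receptors of the Nr4a family, of which Nr4a2 is named in the study's title, were lower in cycling macrophages. Nr4a1 stood at 74.2 against 102 CPM, Nr4a2 at 70.0 against 101 CPM and Nr4a3 at 52.3 against 83.4 CPM, with log2 ratios of -0.46, -0.52 and -0.67. At 20000 to 40000 UMIs the ratios were -0.09 (interval -0.22 to 0.04), -0.24 (-0.37 to -0.11) and -0.68 (-0.83 to -0.54). Nr4a2 stood at 65.5 CPM in free RNA, close to its level in the cycling cells. Along the cycle order Nr4a2 stood at 81.8, 68.4 and 59.0 CPM.

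Cycling cells were found with each of 7 macrophage programs, where a cell carried a program if 2 or more of its thinned UMIs came from that program's genes. Cycling cells were 1.87% of the 1444 cells with the Chil3 and Ly6c2 program and 8.45% of those without it. They were 5.41% of 4695 cells with the Inhba program, which holds Inhba, Nrg1, Vegfa and Thbs1, against 10.4% without, and 4.43% of 1084 cells with Arg1 against 7.59%. The Inhba program was read mainly from Thbs1, which gave 1141 of its 1372.5 CPM in cycling macrophages, with Inhba at 64.3 CPM. After thinning, Thbs1 was seen in 72.2% of other macrophages, and 67.4% of them carried the program. Shares were higher with the Cxcl9 program (8.17% against 6.11%), the Mmp13 and Vcam1 program (10.3% against 6.48%) and the Ccl8, Hes1 and Cx3cr1 program (11.7% against 6.83%). The type I interferon program gave 5.83% against 7.19%.

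Depth changed this picture. Among cells of 20000 to 40000 UMIs, the shares with and without the Cxcl9 program were 20.7% and 21.0%, and those for the Ccl8 program 20.8% and 20.9%. The Mmp13 program turned to 17.8% against 229 of 1039 cells, and the interferon program to 30.4% (14 of 46 cells) against 20.5%. Shares stayed lower with the Inhba program, read mainly from Thbs1 (18.2% against 24.9%), and with the Arg1 (15.8% against 21.6%) and Chil3 (13.7% against 21.4%) programs. The intervals of the Arg1 and Chil3 shares with and without the program overlapped in the window.

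**Figure D5:**
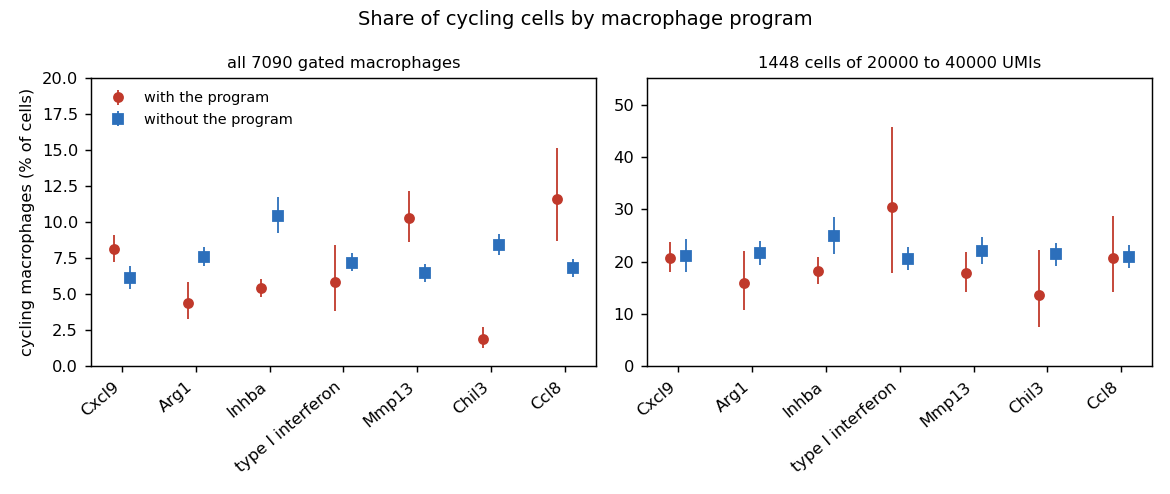
Share of cycling cells among gated glioma macrophages with (circles) and without (squares) each of 7 programs, over all cells and at 20000 to 40000 UMIs, with exact 95% binomial intervals and different vertical axes. The Chil3 program and the Inhba program, read mainly from Thbs1, show lower shares in both panels. The Cxcl9 and Ccl8 gaps of the left panel are not seen on the right (20.7% against 21.0% and 20.8% against 20.9%).

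Some cells under the threshold carried early cycle transcripts. Of the 6586 other macrophages, 204 (3.10%, interval 2.69 to 3.55%) held the early list at or above the cycling cells' median of 11.8 UMIs per 10000, and 70 of them held 0 UMIs of the 3 rule genes. Mcm5 at 132 CPM and Pcna at 191 CPM in their sum belong to that list, so their levels follow from the selection. Of genes outside it, Cdk1 stood at 35.6 CPM, Ccnb1 at 5.31 CPM, Hist1h2ap at 27.0 CPM and Pclaf at 70.9 CPM, against 119, 46.6, 324 and 301 CPM in cycling macrophages.

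The cycle genes were also set beside dividing cells of another lineage. Of 897 glioma T cells, 108 passed the same threshold, and 9531 genes were compared, of which 2130 (22.3%) were at least 2-fold higher and 890 (9.34%) at least 2-fold lower in cycling macrophages, 31.7% in all. Late genes were close, with a median log2 ratio of -0.33 and 4 of 58 genes 2-fold lower, and early genes had a median of -0.58 with 9 of 39 lower. Both sets were chosen by the same threshold on Top2a, Mki67 and Birc5, so like levels of late genes follow in part from the selection. Histones stood apart: 16 of 23 were 2-fold lower in macrophages (median -1.37), with Hist1h2ap at 324 against 808 CPM and Hist1h1e at 169 against 574 CPM. The D-type cyclins differed by type, with Ccnd1 at 69.4 CPM in macrophages and 4.09 CPM in T cells, Ccnd2 at 98.5 and 201 CPM, and Cdk6 at 22.9 and 91.7 CPM. Cdkn1a stood at 509 against 89.4 CPM and Dut, which clears dUTP, at 97.6 against 391 CPM. The T cells were shallower, at a median of 13643 UMIs. They were also higher in the rule genes. Mki67 stood at 303 CPM in cycling macrophages and 541 CPM in cycling T cells, Top2a at 309 and 424 CPM, and Birc5 at 236 and 280 CPM. The part of this offset in the early gene and histone differences was not tested.

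Under the same rule the control library gave 40 of 11625 gated cells, or 0.344% (interval 0.246 to 0.468%), against 7.11% in the glioma library. Control cells were shallower (median 7199 UMIs under the threshold). When every cell was thinned to 2000 UMIs and 1 UMI of the rule genes was required, the shares were 0.671% and 8.98%. The cells differed in their markers: P2ry12, a microglial receptor, stood at 740.0 CPM in the sum of the 40 control cells and 13.8 CPM in the 504 glioma cells. In the control set 3 of 40 cells held S100a8 and S100a9 at 50 or more UMIs per 10000, against 10 of 504 in glioma. Ngp, Camp and Ltf together reached 5 UMIs per 10000 in 3 of the 40, against 1 of 504. The neutrophil list summed to 49326 CPM in the 40 control cells and 1072 CPM in control cells under the threshold. The sum of the 40 thus mixes cell types, and the part of such cells in its P2ry12 level was not tested.

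Genes of other cell types were low in the cycling macrophages. Neutrophil genes summed to 332 CPM against 1170 CPM in other macrophages (8 of 10 genes 2-fold lower, with Camp and Ltf at 0), and dendritic cell genes to 73.9 against 136 CPM. The NK cell list summed to 11.8 CPM with 3 of 10 genes at 0, the B and plasma cell list to 4.83 CPM with 6 of 8 genes at 0, the mast cell list to 0.0805 CPM with 6 of 7 at 0, and 6 of 6 erythroid genes were at 0. Of the 14 glial and tumour genes 5 were at 0, and Vim, which macrophages express, gave most of their 1129 CPM. A keratin or Rhox5 UMI was in 26 cells (5.16%), against 3.07% of other macrophages. The glioma and control matrices share a barcode list, and 10 cycling macrophages (1.98%) and 49 others (0.744%) had barcodes that held 300 or more UMIs in the control matrix too.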

How the data were processed

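Single-cell 3′ libraries of magnetically isolated CD45+ cells were made with 10x Chromium kits, version 2 or 3, per the labels' protocols. Cell Ranger 3.0.2, STAR and Seurat 3 are named in the submitters' processing notes, as are the builds mm10 and GRCh38. The authors deposited 1 matrix of UMI counts per group (31053 genes by 6794880 barcodes, 159689787 UMIs for glioma and 124023146 for control), unfiltered and with no map to the 4 samples of each group.

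Barcodes were filtered by the limits given in the text, and UMIs were summed over cells and divided by the total (CPM). Log2 ratios had 0.5 UMIs added to each sum, with conditional binomial intervals; shares had Clopper-Pearson intervals. Each group was 1 library, so no test was made and counts of genes rest on a 2-fold limit. Thinning drew 2000 UMIs per cell without replacement. Free RNA was summed over barcodes ranked 45000 to 90000 by UMIs, without those of 300 or more UMIs in the control matrix. No clustering or doublet caller was run. T cells had 2 or more Cd3 UMIs and 0 of the macrophage gate genes.

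The members and the 41 gene lists were chosen with earlier results of these data known. Genes named were up to 6 per list with the largest absolute ratios and those needed for their role, the 15 highest and 15 lowest outside the cycle lists, ranked by the interval bound nearest 0, and the selection and Nr4a genes. Alternatives covered thresholds, depth, quality, gates, scaling and gene minimums. The depth window of 20000 to 40000 UMIs, the removal of barcodes with neutrophil, dendritic or mast cell genes and the centring on the median were added after seeing the data. The ratio script was checked on simulated data. Python 3.11.15, numpy 2.4.6, scipy 1.17.1, pandas 2.3.3 and matplotlib 3.10.9 were used.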

Additional observations from a re-analysis of the deposited data

How the results depend on the processing

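The share of cycling cells among gated glioma macrophages (7.11%) was 4.57% at a threshold of 6 UMIs per 10000, 9.80% with at least 3 UMIs of the rule genes, 5.36% at no more than 5% mitochondrial UMIs, 6.07% without cells holding a UMI of the T, NK, B or plasma cell lists, 5.14% without the deepest 5% of barcodes and 8.98% after thinning to 2000 UMIs. The control share (0.344%) was 0.241% at 6 UMIs per 10000 and 0.671% after thinning. Genes at least 2-fold higher (796) numbered 3428 with no minimum of UMIs. Genes at least 2-fold lower (301) numbered 873 with no minimum, 499 at 20 UMIs, 150 at 200 UMIs and 125 at 20000 to 40000 UMIs per cell; with fewer UMIs required, more genes were compared. The other 42 values of these shares and counts stayed within their counting interval or within 1.5 times the main count.

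The log2 ratio of Mmp13 was -0.07 and changed sign to 0.030 at 6 UMIs per 10000, 0.033 with at least 3 UMIs, 0.16 at 5% mitochondrial UMIs, 0.034 against cells with 0 rule gene UMIs, 0.18 as a mean over cells and 0.012 without barcodes of neutrophil, dendritic or mast cell genes. At 20000 to 40000 UMIs the sign also changed for the medians of the type I interferon program (0.52), the Ccl8 program (-0.15) and the type I interferon list (0.18), for Maf (-0.038) and Cxcl9 (-0.21), and for the log2 ratio of cycling shares with over without the Cxcl9 (-0.020) and Mmp13 (-0.30) programs. Centred on the median of all genes, MHC class I genes had a median of -0.047. The cause was not tested. No paired analysis was possible because each group is 1 pooled matrix whose columns carry no replicate. Leaving out a replicate was not possible for the same reason. Depth limits the comparison: only 302 cycling cells and 1146 others lay in the depth window.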
